A study of Mus musculus with 8 samples.

Results

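The 34 genes described here encode the enzymes and carriers that take glucose into a cell, break it down to pyruvate and pass the pyruvate on to lactate or to the mitochondrion. They were listed by gene name for their place in the pathway, with earlier results of these data known, and are 34 of 33971 genes with counts in whole brains of mouse embryos at mid-gestation (E14.5). All embryos were wild type (WT) and came from WT females mated with WT males. The choline-deficient diet (CDD) group held 4 brains from dams that ate this diet from the day of mating until the embryos were collected, and the normal chow diet (ND) group held 4 brains from dams on ordinary chow. The diet was therefore given to the mother and not to the embryo, and each library was poly-A RNA of a whole brain. The labels do not say how many dams or litters the brains came from or the sex of the embryos, so the p-values below measure the spread between brains, some of which may be littermates.

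Glycolysis splits glucose into pyruvate in the cytosol, and most of its steps can be carried out by several isozymes, which are products of different genes that catalyse the same reaction with different kinetics and in different cells. In the developing brain, dividing progenitors and young neurons carry different sets: the *Slc2a1* glucose carrier is known from endothelium and proliferating cells and *Slc2a3* from neurons, and *Eno2* is the neuronal enolase. Many of these genes are known targets of HIF-1, the transcription factor of the low-oxygen response.

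The 8 libraries held between 31770217 and 43121170 counts (32706627 to 43121170 in CDD and 31770217 to 34399295 in ND). Values per brain are given as CPM, counts per 1000000 counts of the library, with library sizes scaled by TMM, and errors are SD over 4 brains of a diet unless named SE. The brains carried the transcripts of the labelled tissue: the 8 neural progenitor markers summed to between 1789 and 2039 CPM in CDD and between 1609 and 1707 CPM in ND, and the 8 markers of postmitotic neurons to between 5683 and 6353 CPM and between 5764 and 5987 CPM. Some libraries stood apart. Brains CDD 2, CDD 4 and ND 4 held 54452 to 58635 counts of *Xist* and 0 counts of 4 Y-linked genes. The other 5 held 6 to 12 counts of *Xist* and 731 to 3561 counts of each Y-linked gene. Read by these genes, the former brains were female and the latter male, so sex was unequal between the diets. Caudal *Hox* genes, which mark spinal cord, summed to 111 CPM in CDD 2 and to at most 0.453 CPM in the other 7 brains. The choroid plexus markers summed to 180 (CDD 4) to 492 CPM (CDD 1) in CDD and 279 to 322 CPM in ND. Over the genes tested, chi-square per degree of freedom between brains of a diet was 6.04 to 22.7 in CDD and 3.76 to 7.6 in ND. By this measure the CDD brains were less alike than the ND brains. It was taken on raw counts, so it grows with depth, and CDD 3 was the deepest library. Pairs with unlike *Xist* were not set apart. The pair of CDD 1 and CDD 3, both without *Xist*, gave the 6.04, inside the ND range.

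All 34 genes passed the filter on low counts. By edgeR's quasi-likelihood test over 19367 genes, 5 of the 34 were higher in CDD (*Hk2*, *Pkm*, *Pgk1*, *Aldoc* and *Tpi1*), 4 were lower (*Pfkp*, *Eno2*, *Slc2a3* and *Pfkfb3*), and 25 did not pass an adjusted p of 0.05. The 9 genes are 26.5% of the 34, beside 8.83% of all genes tested (4.24% higher and 4.59% lower). The members are abundant, with a median of 78.0 CPM against 14.6 CPM over all genes tested, and abundant genes are measured more precisely. Of the 31 members with at least 10 CPM on average, 9 passed, beside 12.9% of all 10720 genes at that level. The changes were small: none of the 9 reached 1.5-fold, and the median size of the log2 fold change was 0.14 over the members and 0.11 over all genes. They had no common direction. The median log2 fold change was 0.02 over the members and −0.0038 over all genes, and 19 of the 34 were above 0. In 6 members every CDD brain was above every ND brain and in 3 every CDD brain was below, beside 7.65% and 7.39% of all genes tested. In whole tissue, fewer cells that carry a transcript and less transcript per cell cannot be told apart.

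**Figure D1:**
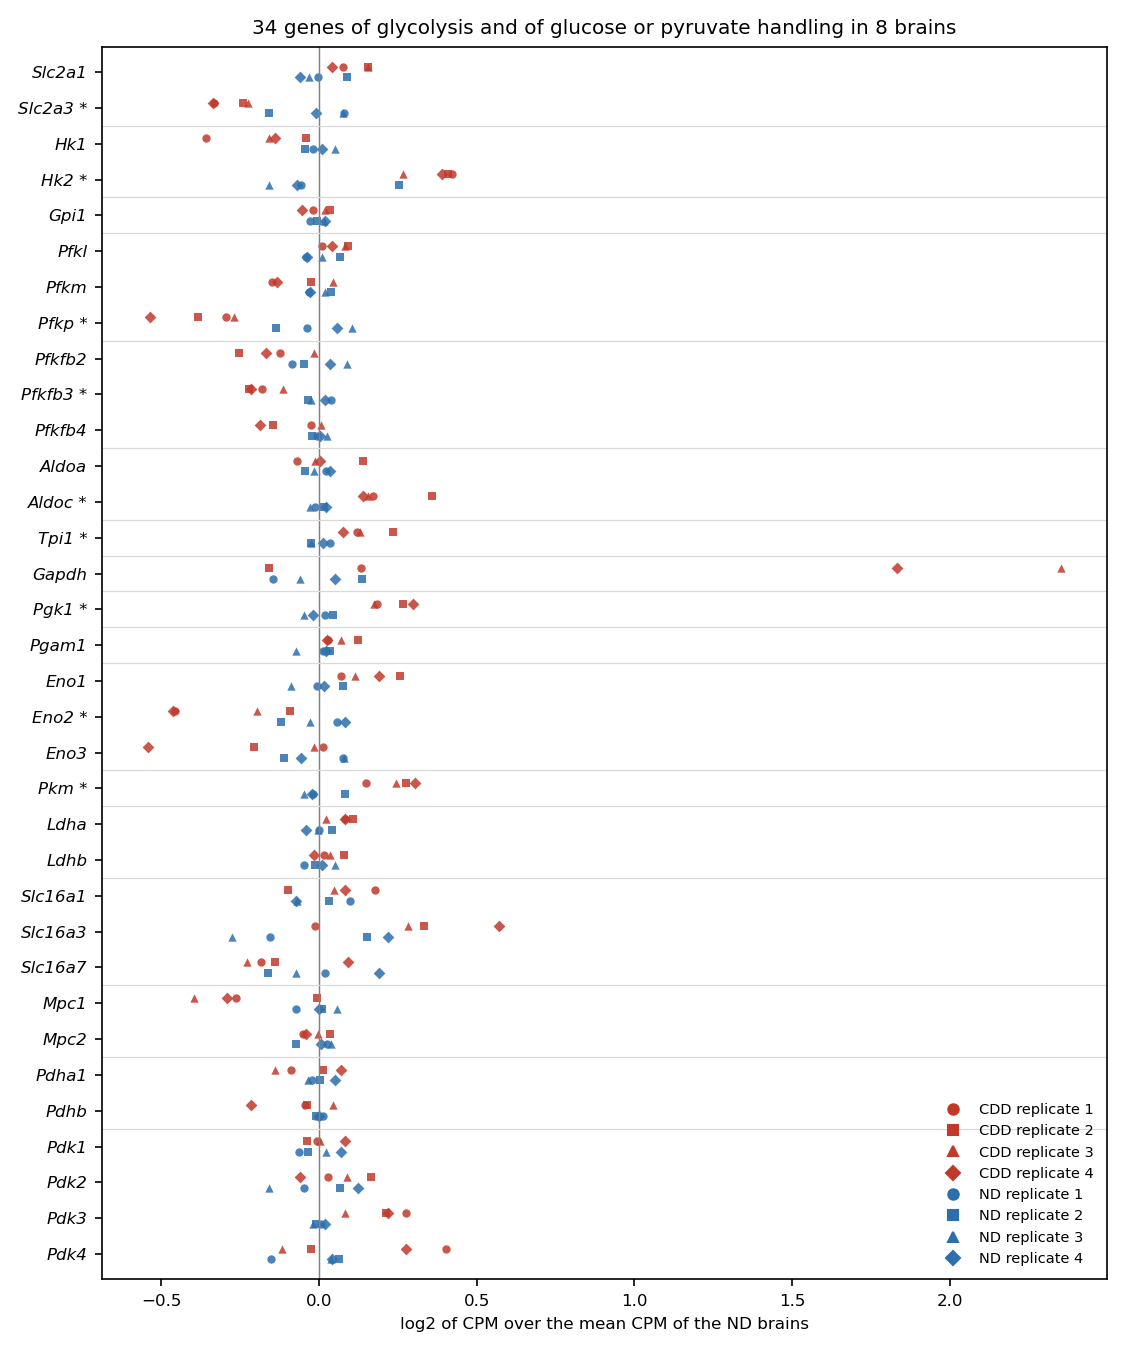
Each point is 1 brain, placed by the log2 of its CPM over the mean CPM of the ND brains, for each of the 34 genes in order of the pathway. Red marks CDD, blue ND, and the symbol the replicate; an asterisk marks the 9 genes with an edgeR adjusted p under 0.05, and the points far to the right are *Gapdh* in CDD 3 and CDD 4.

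Levels of different genes can be compared only per length, for which the FPKM values of the deposited table were used. They depend on the listed gene lengths, and whether those match the transcripts present was not tested. Pyruvate kinase *Pkm* had the highest level of the 34, at 168 ± 8.61 FPKM in CDD and 142 ± 5.89 FPKM in ND, and *Ldhb*, *Pgk1*, *Pgam1* and *Eno1* followed at between 67.9 and 93.9 FPKM. Of these followers, *Pgam1* and *Pgk1* lay within their spread of each other in ND, at 77.9 ± 2.76 and 76.9 ± 2.23 FPKM. The lowest levels were those of the starvation-responsive kinase *Pdk4* (0.604 ± 0.102 and 0.542 ± 0.0357 FPKM) and of the lactate exporter *Slc16a3* (0.764 ± 0.129 and 0.615 ± 0.101 FPKM). *Gapdh*, usually among the most abundant transcripts of any tissue, was listed at only 3.06 ± 0.262 FPKM in ND. The pseudogene rows *Gapdh-ps14* and *Gapdh-ps16* held 4 and 3 counts over all brains against 6869 for *Gapdh*. Adding so few counts could not move its log2 fold change, which stayed at 1.42. No other copies of *Gapdh* were examined. What set this level was not tested.

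**Figure D2:**
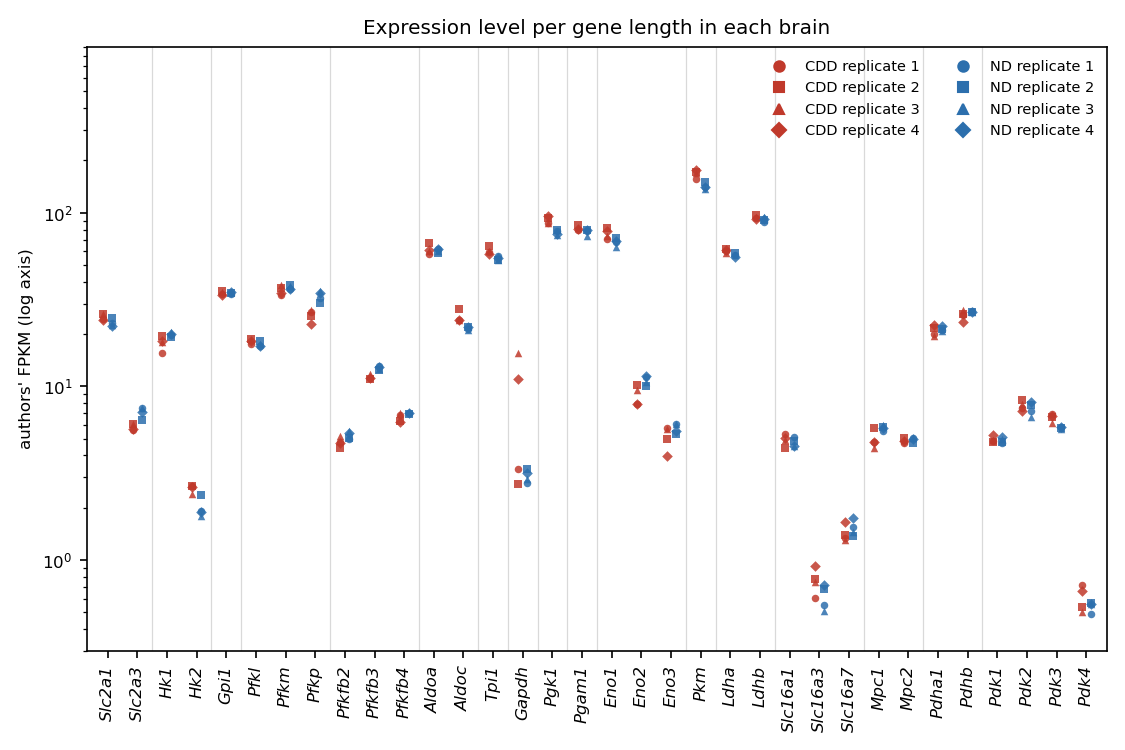
FPKM of each of the 34 genes in each brain, on a log axis, with grey lines between steps of the pathway. *Pkm* lies highest and *Pdk4* and *Slc16a3* lowest in both diets, and within most steps a single isozyme holds most of the summed level.

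The regions before the start sites of 4 of the 9 genes are printed, covering genes that moved in both directions. Each gene has a single start in the RefSeq promoter table, and the region lies outside its own annotated transcripts on the same build. Each run is the 250 bases before the start on build GRCm38.p6, 5′ to 3′ on the gene's strand. The gene positions printed further below are as listed in the deposited table, whose build is not given. They cannot be set against the positions of these runs. Capitals mark matches, on either strand, to ACGTG or GCGTG, the letters of the core motif of HIF-1 (a palindromic CACGTG would count on both strands).
*Hk2* (chr6:82774455-82774704, minus strand): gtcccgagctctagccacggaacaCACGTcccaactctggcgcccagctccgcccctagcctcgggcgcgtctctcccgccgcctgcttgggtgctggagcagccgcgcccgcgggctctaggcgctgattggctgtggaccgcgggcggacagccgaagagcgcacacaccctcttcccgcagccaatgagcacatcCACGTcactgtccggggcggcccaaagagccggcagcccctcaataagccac
*Pgk1* (chrX:106186850-106187099, plus strand): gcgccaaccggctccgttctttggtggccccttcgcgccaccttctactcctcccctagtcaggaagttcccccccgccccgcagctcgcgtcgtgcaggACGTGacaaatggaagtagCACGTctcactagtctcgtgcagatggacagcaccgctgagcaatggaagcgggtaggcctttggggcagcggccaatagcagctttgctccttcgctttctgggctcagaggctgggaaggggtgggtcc
*Pfkp* (chr13:6648772-6649021, minus strand): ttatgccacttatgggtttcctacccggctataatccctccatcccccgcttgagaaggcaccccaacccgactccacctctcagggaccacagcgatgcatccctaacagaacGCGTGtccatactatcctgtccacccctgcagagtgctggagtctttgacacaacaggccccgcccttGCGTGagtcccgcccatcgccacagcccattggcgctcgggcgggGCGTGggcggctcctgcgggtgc
*Eno2* (chr6:124769674-124769923, minus strand): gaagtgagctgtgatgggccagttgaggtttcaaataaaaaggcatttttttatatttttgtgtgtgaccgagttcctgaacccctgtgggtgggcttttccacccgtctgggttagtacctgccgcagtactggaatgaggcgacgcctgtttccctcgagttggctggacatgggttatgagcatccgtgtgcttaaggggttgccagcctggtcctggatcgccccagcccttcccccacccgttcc
The higher genes *Hk2* and *Pgk1* each held 2 matches to ACGTG. The lower gene *Pfkp* held 3 matches to GCGTG before the start and 4 in the whole window of 300 bases, and the lower gene *Eno2* held 0. RefSeq gave windows for 32 of the 34 genes (not for *Slc2a3* and *Slc16a7*). Of their 49 windows, 79.6% held either motif, beside 43.8% of all 32851 windows; for ACGTG the shares were 44.9% and 19.6%, and for GCGTG 59.2% and 32.4%. Either motif stood in 5 of the 7 windows of the genes higher in CDD and in 3 of the 4 windows of those lower. Both motifs contain CG and the windows were not matched for base composition, and why the shares differ was not tested. A match is a run of letters and not a bound site.

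Glucose enters through *Slc2a1* (GLUT1, the carrier of the blood-brain barrier and of progenitors) and *Slc2a3* (GLUT3, the high-affinity neuronal carrier). *Slc2a3* (chromosome 6, 122704768 to 122778599, minus strand as listed) measured 41.2, 43.99, 44.5 and 41.2 CPM in CDD replicates 1 to 4 and 54.9, 46.5, 54.8 and 51.6 CPM in ND replicates 1 to 4. Every CDD brain lay below every ND brain, and *Slc2a3* fell (log2 fold change −0.28, SE 0.0577, edgeR adjusted p = 0.00602). *Slc2a1* measured 86.5, 91.4, 91.4 and 84.5 CPM in CDD replicates 1 to 4 and 81.9, 87.2, 80.3 and 78.8 CPM in ND replicates 1 to 4. Its diets overlapped through ND 2, and it did not pass the test (log2 fold change 0.11, SE 0.0455, edgeR adjusted p = 0.148). The log2 ratio of *Slc2a1* to *Slc2a3* within a brain was 1.05 ± 0.0144 in CDD and 0.66 ± 0.164 in ND, a difference of 0.39 (SE 0.0826, exact two-sided permutation p = 0.0286), with no overlap. *Slc2a3* accordingly held 18.9% ± 0.154 of the summed FPKM of the pair in CDD and 23.5% ± 1.99 in ND, while their sum was 31.0 ± 1.195 and 30.4 ± 0.758 FPKM, with overlapping diets.

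Hexokinase traps glucose as its 6-phosphate, with *Hk1* as the standing brain isozyme and *Hk2* as the isozyme of growing and hypoxic tissue. *Hk2* (chromosome 6, 82702006 to 82751435, minus strand) measured 16.03, 15.9, 14.4 and 15.7 CPM in CDD replicates 1 to 4 and 11.5, 14.3, 10.7 and 11.4 CPM in ND replicates 1 to 4. All 4 CDD brains were above all 4 ND brains, although ND 2 came close to CDD 3. *Hk2* rose (log2 fold change 0.37, SE 0.0862, edgeR adjusted p = 0.0123), and lost the call without ND 1, ND 3 or ND 4 (adjusted p up to 0.0685 with 1 brain left out) and among the brains without *Xist* reads. *Hk1* measured 134, 167, 153 and 156 CPM in CDD replicates 1 to 4 and 169, 166, 177 and 172 CPM in ND replicates 1 to 4. It was lowest in CDD 1, its diets overlapped through CDD 2 and ND 2, and it stood just outside the threshold (log2 fold change −0.17, SE 0.0540, edgeR adjusted p = 0.0576). The log2 ratio of *Hk1* to *Hk2* was 3.29 ± 0.161 in CDD and 3.84 ± 0.215 in ND, lower by 0.55 in CDD (SE 0.134, exact permutation p = 0.0286). *Hk2* took 12.8% ± 1.28 of the hexokinase FPKM in CDD and 9.10% ± 1.29 in ND, so *Hk1* remained the major form in every brain. *Gpi1*, which turns glucose 6-phosphate into fructose 6-phosphate, was at 224 ± 6.17 CPM in CDD and 224 ± 3.43 CPM in ND (log2 fold change −0.0035, SE 0.0414, edgeR adjusted p = 0.974).

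Phosphofructokinase commits the sugar to glycolysis, and its liver (*Pfkl*), muscle (*Pfkm*) and platelet (*Pfkp*) subunits are all expressed in brain. *Pfkp* (chromosome 13, 6629804 to 6698813, minus strand) measured 363, 341, 369 and 307 CPM in CDD replicates 1 to 4 and 434, 405, 479 and 463 CPM in ND replicates 1 to 4. The diets did not overlap, CDD 4 was the lowest and ND 3 the highest, and *Pfkp* fell by the most of the members that fell (log2 fold change −0.37, SE 0.0627, edgeR adjusted p = 0.00236). The call held with any 1 brain left out and under every other tool, scaling, filter and model tried. *Pfkl* measured 118, 125, 124 and 121 CPM in CDD replicates 1 to 4 and 114, 123, 118 and 115 CPM in ND replicates 1 to 4. *Pfkm* measured 113, 123, 129 and 114 CPM in CDD replicates 1 to 4 and 123, 129, 127 and 123 CPM in ND replicates 1 to 4. Neither passed the test (log2 fold changes 0.06 with SE 0.0403 for *Pfkl* and −0.06 with SE 0.0453 for *Pfkm*, edgeR adjusted p = 0.424 and 0.435). The log2 ratio of *Pfkl* to *Pfkp* was higher in CDD by 0.43 (SE 0.0936) and that of *Pfkl* to *Pfkm* by 0.12 (SE 0.0319), both with exact permutation p = 0.0286 and no overlap. *Pfkm* against *Pfkp* overlapped through CDD 1 and ND 2 (exact permutation p = 0.0571). Per length, *Pfkp* held 32.2% ± 1.71 of the phosphofructokinase FPKM in CDD and 37.6% ± 2.07 in ND, and *Pfkm* was the largest share in both. That order rests on the listed lengths, 13401 bases for *Pfkp* and 3340 for *Pfkm*. By CPM, *Pfkp* was the highest of the 3 genes in every brain. The summed level was 79.7 ± 3.88 FPKM in CDD and 87.8 ± 2.13 FPKM in ND, without overlap. Counts of this step carry a limit, since opposite-strand genes overlap *Pfkm* (*Senp1*, with 49.6% as many counts) and *Pfkp* (*Pitrm1*, with 15.5%), and the use of strand in counting is not given in the sources used here.

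Enzymes of the *Pfkfb* family make and break fructose 2,6-bisphosphate, the activator of phosphofructokinase. *Pfkfb3*, the form with the strongest kinase activity (chromosome 2, 11476244 to 11558888, minus strand), measured 85.8, 83.4, 89.9 and 83.8 CPM in CDD replicates 1 to 4 and 99.8, 95.1, 95.7 and 98.7 CPM in ND replicates 1 to 4. All CDD brains were below all ND brains and *Pfkfb3* fell (log2 fold change −0.18, SE 0.0418, edgeR adjusted p = 0.0116), a call lost without ND 1 or ND 4 and among the brains without *Xist* reads. *Pfkfb2*, known from heart, measured 35.1, 32.05, 37.8 and 34.02 CPM in CDD replicates 1 to 4 and 36.04, 37.01, 40.7 and 39.2 CPM in ND replicates 1 to 4. *Pfkfb4* measured 33.8, 31.1, 34.5 and 30.2 CPM in CDD replicates 1 to 4 and 34.2, 33.9, 34.96 and 34.4 CPM in ND replicates 1 to 4. In both the diets overlapped, and neither passed (log2 fold changes −0.14 with SE 0.0616 and −0.08 with SE 0.0576, edgeR adjusted p = 0.180 and 0.402). *Yod1* overlaps *Pfkfb2* on the opposite strand with 53.2% as many counts. No ratio among the *Pfkfb* genes separated the diets. The summed level of the family was 22.7 ± 1.05 FPKM in CDD and 25.0 ± 0.378 FPKM in ND, without overlap.

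Aldolase splits the 6-carbon sugar, with *Aldoa* in most cells and *Aldoc* as the brain form. *Aldoc* (chromosome 11, 78213794 to 78218607, plus strand) measured 79.9, 91.2, 79.1 and 78.3 CPM in CDD replicates 1 to 4 and 70.4, 71.8, 69.7 and 72.2 CPM in ND replicates 1 to 4. The diets did not overlap, with CDD 2 well above the other brains, and *Aldoc* rose (log2 fold change 0.21, SE 0.0495, edgeR adjusted p = 0.0139). The call was lost without ND 1 or ND 3. *Aldoa* measured 169, 196, 176 and 178 CPM in CDD replicates 1 to 4 and 181, 172, 176 and 182 CPM in ND replicates 1 to 4. It was highest in CDD 2 as well, and its diets overlapped (log2 fold change 0.02, SE 0.0469, edgeR adjusted p = 0.874). The log2 ratio of *Aldoa* to *Aldoc* fell from 1.32 ± 0.0420 in ND to 1.13 ± 0.0466 in CDD, a difference of −0.19 (SE 0.0314, exact permutation p = 0.0286, no overlap). *Aldoc* held 29.0% ± 0.664 of the aldolase FPKM in CDD and 26.3% ± 0.567 in ND. *Aldoa* stands on 2 identifiers, of which the larger was used, and *Tlcd3b* on the opposite strand overlaps it with 79.7% as many counts.

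The middle of the pathway, from triose to 2-phosphoglycerate, has a single main gene per step. *Tpi1* (chromosome 6, 124787549 to 124791259, minus strand), which interconverts the triose phosphates, measured 164, 178, 165 and 159.6 CPM in CDD replicates 1 to 4 and 155, 148, 149 and 153 CPM in ND replicates 1 to 4. The diets did not overlap, with CDD 2 highest. *Tpi1* rose by a small amount (log2 fold change 0.14, SE 0.0426, edgeR adjusted p = 0.0431), and the call held in only 2 of the 8 fits with a brain left out (without CDD 3 or CDD 4). It was also lost with limma-voom (adjusted p = 0.0510), with *Xist* as a covariate (edgeR adjusted p = 0.0553) and among brains without *Xist* reads (0.0742). *Pgk1* (chromosome X, 105230706 to 105247305, plus strand), which makes the first ATP of the pathway, measured 197, 209, 196 and 213 CPM in CDD replicates 1 to 4 and 176, 179, 168 and 171 CPM in ND replicates 1 to 4. CDD 4 and CDD 2 were highest, all CDD brains were above all ND brains, and *Pgk1* rose (log2 fold change 0.23, SE 0.0434, edgeR adjusted p = 0.00348) in the fit of all brains and in every fit with a brain left out. *Gapdh*, which oxidises glyceraldehyde 3-phosphate, measured 13.9, 11.4, 64.96 and 45.3 CPM in CDD replicates 1 to 4 and 11.5, 13.97, 12.2 and 13.2 CPM in ND replicates 1 to 4. CDD 3 and CDD 4 were far above the other 6 brains, which lay together between 11.4 and 13.97 CPM. With that spread inside the CDD group the test was not passed (log2 fold change 1.42, SE 0.622, edgeR adjusted p = 0.235), and the log2 fold change ranged from 0.89 to 1.72 with 1 brain left out. The opposite-strand gene *Iffo1* overlaps *Gapdh* and holds 133% as many counts. What set the 2 brains apart was not tested. *Pgam1*, the phosphoglycerate mutase, was at 162 ± 5.18 CPM in CDD and 155 ± 5.26 CPM in ND (log2 fold change 0.06, SE 0.0417, edgeR adjusted p = 0.386).

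*Pgk1* is on the X chromosome, as are *Pdk3* and *Pdha1*, and brains with *Xist* were unequal between the diets, at 2 of 4 in CDD and 1 of 4 in ND. Among brains with *Xist*, *Pgk1* was at 209 to 213 CPM in CDD and at 171 CPM in ND. Among brains without, it was at 196 to 197 CPM in CDD and at 168 to 179 CPM in ND. With *Xist* this sets 2 CDD brains against 1 ND brain and without it 2 against 3. In the brains without *Xist* the log2 fold change of *Pgk1* was 0.17 (edgeR adjusted p = 0.0131), beside 0.23 over all brains, and with *Xist* as a covariate it was 0.22. *Pdk3* was at 17.2 to 17.3 against 15.05 CPM with *Xist*, and at 15.7 to 18.0 against 14.6 to 14.9 CPM without. *Pdha1* was at 81.05 to 84.4 against 83.3 CPM with *Xist*, and at 72.9 to 75.5 against 78.3 to 80.5 CPM without, so that the diets overlapped with *Xist* and CDD was the lower without.

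**Figure D3:**
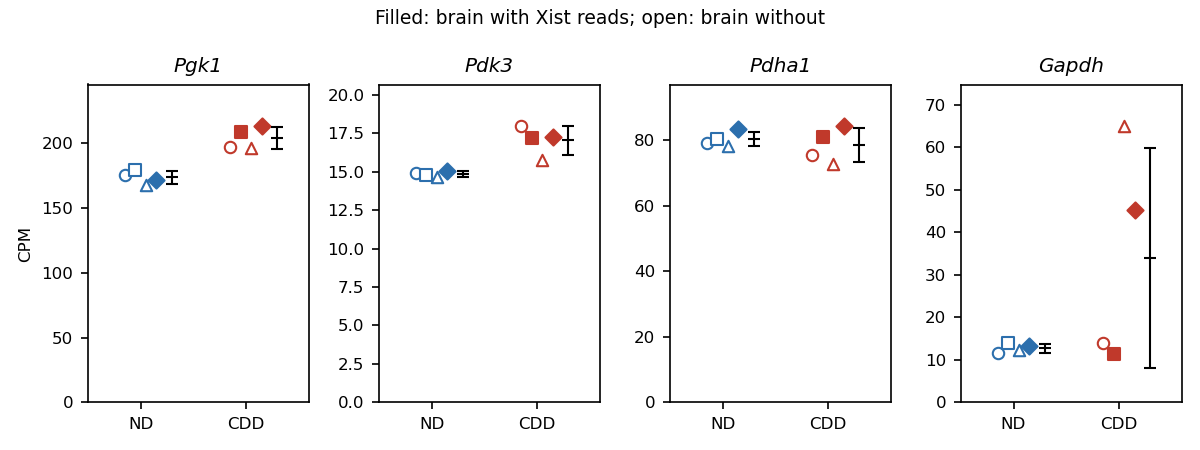
CPM of the 3 X-linked members and of *Gapdh* in each brain, with the mean and SD of each diet beside the points; filled symbols are the 3 brains with *Xist* reads. *Pgk1* and *Pdk3* are higher in CDD in filled and open symbols alike, *Pdha1* is not, and the *Gapdh* mean of CDD rests on 2 brains.

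Enolase makes phosphoenolpyruvate, with *Eno1* in most cells, *Eno2* in neurons and *Eno3* in muscle. *Eno2* (chromosome 6, 124737016 to 124746636, minus strand) measured 37.5, 48.2, 44.9 and 37.3 CPM in CDD replicates 1 to 4 and 53.5, 47.3, 50.5 and 54.5 CPM in ND replicates 1 to 4. CDD 1 and CDD 4 were lowest and CDD 2 was above ND 2, so the diets overlapped, while the fit called *Eno2* lower (log2 fold change −0.29, SE 0.0781, edgeR adjusted p = 0.0311). The call held in 3 of the 8 fits with a brain left out (without CDD 2, CDD 3 or ND 2). *Eno1* measured 386, 439.5, 398 and 419 CPM in CDD replicates 1 to 4 and 366, 387, 346 and 372 CPM in ND replicates 1 to 4. It overlapped through CDD 1 and ND 2 and stood just outside the threshold (log2 fold change 0.16, SE 0.0526, edgeR adjusted p = 0.0644), with values on both sides of it: DESeq2 and limma-voom called it higher (adjusted p = 0.0208 and 0.0451), while its adjusted p was 0.273 without ND 3, and among brains without *Xist* reads the log2 fold change was 0.10 (edgeR adjusted p = 0.243). *Eno3* measured 10.1, 8.72, 9.97 and 6.91 CPM in CDD replicates 1 to 4 and 10.6, 9.32, 10.6 and 9.68 CPM in ND replicates 1 to 4. It was lowest in CDD 4 and did not pass (log2 fold change −0.17, SE 0.107, edgeR adjusted p = 0.361), and the 9 markers of skeletal muscle, where it is best known, summed to between 3.77 and 4.76 CPM in every brain. The log2 ratio of *Eno1* to *Eno2* was 3.30 ± 0.159 in CDD and 2.84 ± 0.129 in ND, higher by 0.46 in CDD (SE 0.102, exact permutation p = 0.0286) and without overlap, although each gene taken alone overlapped. *Eno1* held 84.4% ± 1.64 of the enolase FPKM in CDD and 80.3% ± 1.41 in ND, and *Eno2* held 9.85% ± 0.922 and 12.9% ± 0.909.

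*Pkm* (chromosome 9, 59563651 to 59586658, plus strand), the pyruvate kinase of brain and of dividing cells, measured 791, 863, 845 and 881 CPM in CDD replicates 1 to 4 and 704, 756, 691 and 703 CPM in ND replicates 1 to 4. CDD 4 was highest and CDD 1 the lowest of its diet, and all CDD brains were above all ND brains. *Pkm* rose (log2 fold change 0.24, SE 0.0509, edgeR adjusted p = 0.00670), a call that was lost without ND 3 (adjusted p = 0.0637) and held without any other brain. Its M1 and M2 splice forms share the gene count and were not measured apart. A same-strand transcript, *Gm49759*, lies within its span with 6.0% as many counts.

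Pyruvate is turned into lactate and back by lactate dehydrogenase, whose *Ldha* form favours lactate and whose *Ldhb* form favours pyruvate. *Ldha* was at 201 ± 4.91 CPM in CDD and 191 ± 4.50 CPM in ND (log2 fold change 0.07, SE 0.0410, edgeR adjusted p = 0.289). *Ldhb* was at 148 ± 4.06 CPM in CDD and 145 ± 4.14 CPM in ND (log2 fold change 0.03, SE 0.0399, edgeR adjusted p = 0.729). Their log2 ratio differed between the diets by 0.05 (SE 0.0381, exact permutation p = 0.257), and *Ldhb* held 60.8% ± 0.784 and 61.6% ± 0.976 of their FPKM in CDD and ND. Lactate and pyruvate cross the cell membrane through monocarboxylate carriers. *Slc16a1* (MCT1) was at 21.97 ± 1.73 CPM in CDD and 21.1 ± 1.23 CPM in ND. *Slc16a7* (MCT2, the neuronal carrier) was at 16.9 ± 1.75 CPM in CDD and 18.2 ± 1.94 CPM in ND. *Slc16a3* (MCT4, the exporter of glycolytic cells) was at 4.07 ± 0.667 CPM in CDD and 3.29 ± 0.536 CPM in ND. None of the carriers passed the test (log2 fold changes 0.06, −0.11 and 0.31 in that order, edgeR adjusted p = 0.688, 0.464 and 0.216). *Slc16a3* is the least certain of them, because *Csnk1d* on the opposite strand overlaps it with 8070% as many counts.

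Pyruvate enters the mitochondrion through a carrier of 2 subunits. *Mpc1* was at 10.3 ± 1.23 CPM in CDD and 12.1 ± 0.445 CPM in ND (log2 fold change −0.23, SE 0.0871, edgeR adjusted p = 0.101). *Mpc2* was at 36.1 ± 1.01 CPM in CDD and 36.5 ± 1.25 CPM in ND (log2 fold change −0.02, SE 0.0534, edgeR adjusted p = 0.901). Their log2 ratio was lower in CDD by 0.22 (SE 0.0805, exact permutation p = 0.0571), with an overlap through CDD 2. *Mpc1* has a processed copy, *Mpc1-ps*, with 3558 counts against 3120 for the gene itself, so its level is uncertain. Inside, pyruvate dehydrogenase makes acetyl-CoA. Its subunits *Pdha1* (78.5 ± 5.20 CPM in CDD and 80.3 ± 2.17 CPM in ND) and *Pdhb* (99.9 ± 7.35 CPM in CDD and 104 ± 0.740 CPM in ND) did not pass the test (edgeR adjusted p = 0.730 and 0.488), nor did their ratio (exact permutation p = 0.8286).

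Pyruvate dehydrogenase kinases switch that enzyme off. *Pdk3*, which has the highest kinase activity of the family, was at 17.04 ± 0.939 CPM in CDD and 14.8 ± 0.182 CPM in ND, with every CDD brain above every ND brain, but did not pass (log2 fold change 0.20, SE 0.0677, edgeR adjusted p = 0.0740). *Pdk1*, a known hypoxia target, was at 38.6 ± 1.41 CPM in CDD and 38.3 ± 1.58 CPM in ND. *Pdk2*, the most widespread form, was at 24.6 ± 1.62 CPM in CDD and 23.7 ± 2.02 CPM in ND. *Pdk4* was at 2.13 ± 0.363 CPM in CDD and 1.92 ± 0.128 CPM in ND. These 3 did not pass either (edgeR adjusted p between 0.653 and 0.931). The log2 ratio of *Pdk1* to *Pdk3* was lower in CDD by 0.19 (SE 0.0562, exact permutation p = 0.0286), without overlap.

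In all, 24 ratios within steps were compared, 22 of isozymes and 2 of subunits. The 7 named above reached 0.0286, the smallest p that 70 divisions of 4 against 4 brains can give, and those 7 were also the ratios whose diets did not overlap. None passed after Benjamini-Hochberg adjustment over the 24 (smallest adjusted exact permutation p = 0.098), and ratios that share a gene are not independent. With a brain left out, the design cannot go below 0.0571, so the sizes are given instead: the difference of *Pfkl*/*Pfkp* ranged from 0.38 to 0.49, that of *Slc2a1*/*Slc2a3* from 0.35 to 0.47, that of *Eno1*/*Eno2* from 0.40 to 0.52 and that of *Hk1*/*Hk2* from −0.65 to −0.48. In 3 steps the lower partner was the gene that passed the test alone (*Slc2a3*, *Pfkp* and *Eno2*), and in 2 it was the higher partner that passed (*Hk2* and *Aldoc*). In the edgeR fit of all 8 brains no step had both partners past the threshold, but that depended on the setting. *Hk1* passed beside *Hk2* without the filter on low counts, without CDD 2, with a replicate block and with *Xist* as a covariate. The edgeR adjusted p of *Hk1* was then 0.00840, 0.0266, 0.0370 and 0.0164. *Eno1* passed beside *Eno2* with DESeq2, with limma-voom and without the filter (adjusted p of *Eno1* 0.0208, 0.0451 and 0.0284).

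**Figure D4:**
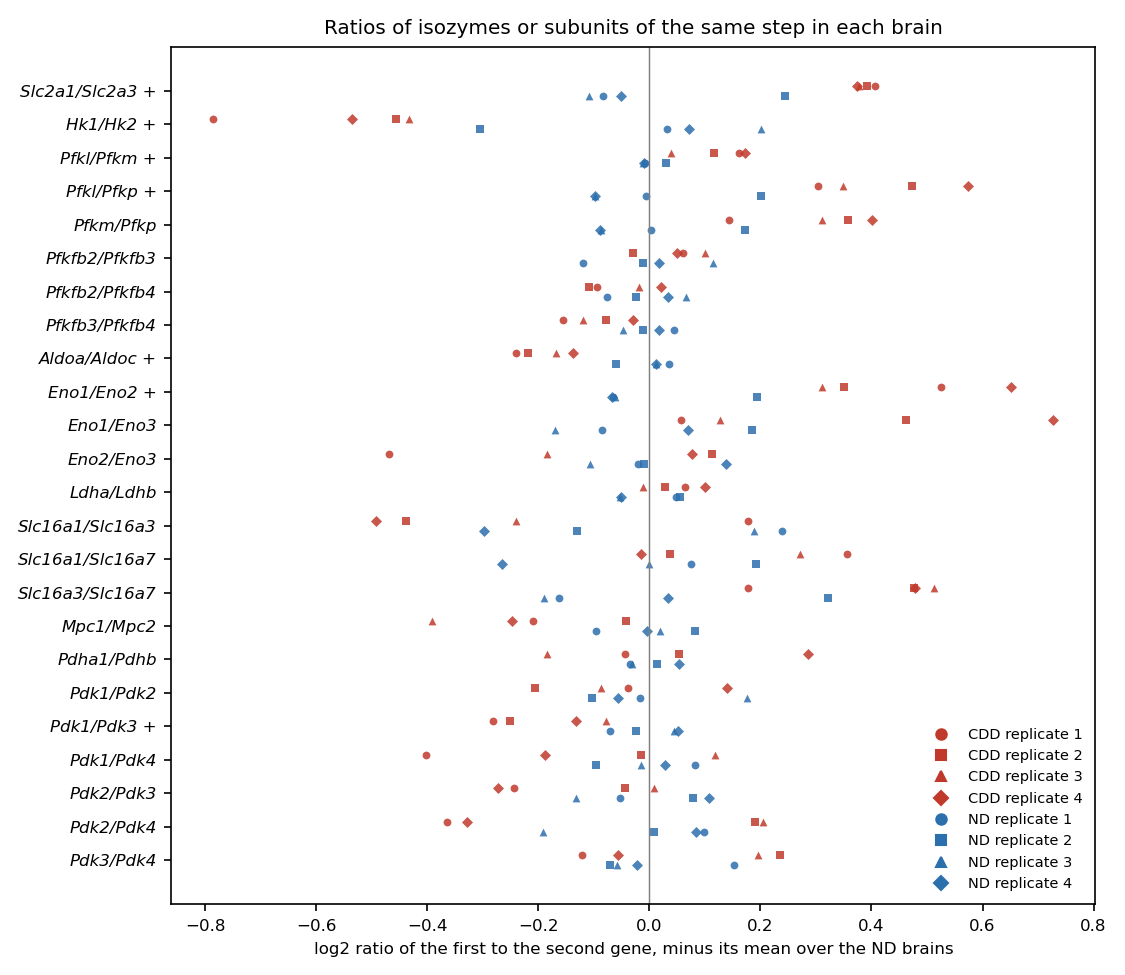
Log2 ratio of the first to the second gene of each of the 24 pairs, minus its mean over the ND brains, with 1 point per brain (red CDD, blue ND). A plus sign marks the 7 ratios whose diets did not overlap; *Hk1*/*Hk2* lies lowest among them and *Eno1*/*Eno2*, *Pfkl*/*Pfkp* and *Slc2a1*/*Slc2a3* highest.

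Calls differed in how much they rested on single brains. *Slc2a3*, *Pfkp* and *Pgk1* passed in all 8 fits with a brain left out, *Pkm* in 7, *Pfkfb3* and *Aldoc* in 6, *Hk2* in 5, *Eno2* in 3 and *Tpi1* in 2. The direction of each of the 9 was the same in all of these fits. The number of members called was 4 without ND 1, 4 without ND 3, 5 without ND 4 and between 8 and 10 without any other brain. Without CDD 2, the brain with *Hox* transcripts, 10 members passed: 8 of the 9 (*Tpi1* was lost) with *Hk1* and *Mpc1*. At an adjusted p under 0.01, 4 members remained: *Pfkp*, *Pgk1*, *Slc2a3* and *Pkm*.

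**Figure D5:**
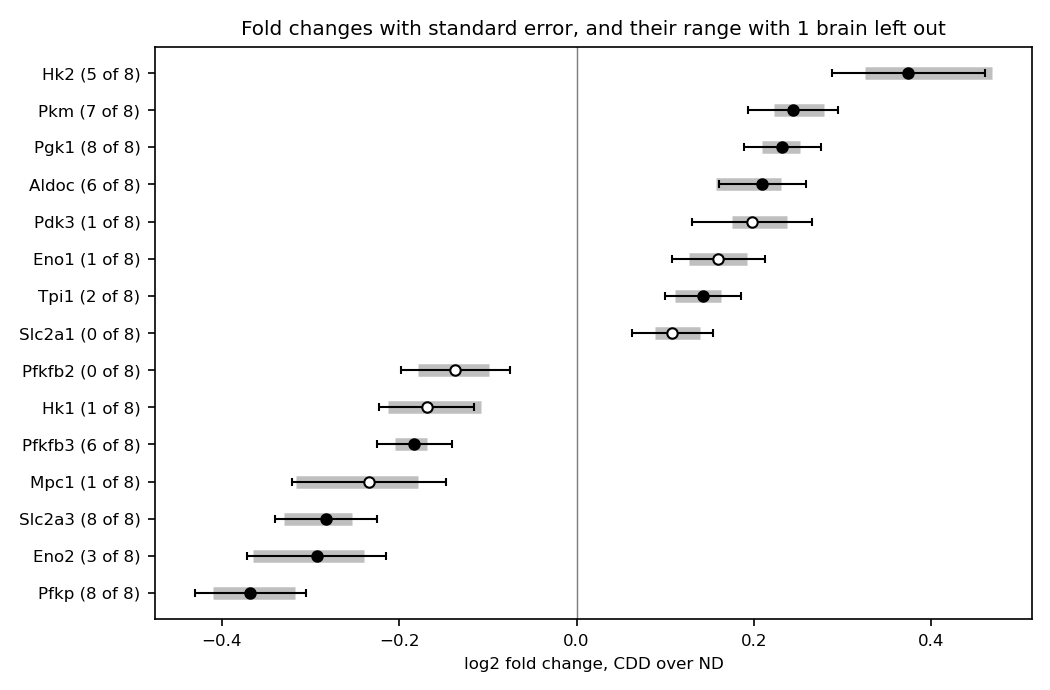
Log2 fold change of CDD over ND (points) with its standard error (bars) for the 15 members with an unadjusted edgeR p under 0.05; filled points passed at an adjusted p of 0.05. Grey bands span the fold changes with 1 brain left out, and the numbers beside the names give in how many of those 8 fits the gene passed; no band crosses 0.

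Lists of genes next to the pathway are set beside all genes tested, of which 8.83% passed and 23.9% had an unadjusted edgeR p under 0.05. A list of other isozymes and carriers of glucose or lactate also held partner proteins of the lactate carriers, such as *Bsg*. Of its 21 tested genes 0 passed edgeR's test and 3 had an unadjusted p under 0.05. Of 6 other genes of the pyruvate dehydrogenase complex 0 passed, with 1 at an unadjusted p under 0.05, and of 3 tested genes of gluconeogenesis 0 passed, also with 1. In the pentose phosphate pathway 1 of 8 passed, *Pgd*, the second NADPH-making enzyme (92.1 ± 3.71 CPM in CDD and 80.7 ± 0.370 CPM in ND, log2 fold change 0.19, edgeR adjusted p = 0.00908). Of 13 regulators of glycolytic genes 3 were lower: *Egln3*, an oxygen-sensing hydroxylase and HIF target (9.01 ± 0.344 CPM in CDD and 11.5 ± 0.882 CPM in ND, log2 fold change −0.35, adjusted p = 0.0141), *Mycn*, a progenitor transcription factor (log2 fold change −0.19, adjusted p = 0.0224), and *Txnip*, which restrains glucose uptake (log2 fold change −0.19, adjusted p = 0.0477). *Hif1a* itself was at 147 CPM in CDD and 130 CPM in ND and did not pass (adjusted p = 0.151).

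Markers of cell types differed between the diets beside these genes. Of the 8 progenitor markers 4 were higher in CDD (*Pax6*, *Nes*, *Vim* and *Mki67*) and 0 lower, and their summed level did not overlap between diets, as given above. Of the 8 neuron markers 0 were higher and 1 lower (*Snap25*), with overlapping sums. The 7 endothelial markers summed to 258 to 272 CPM in CDD and 273 to 287 CPM in ND, with 1 lower (*Cldn5*) and none at 0. The 3 embryonic globin genes, which mark primitive red cells, summed to 114 to 222 CPM in CDD and 33.3 to 45.0 CPM in ND, with 2 higher (*Hbb-y* and *Hba-x*), whereas 8 other erythroid markers overlapped at 631 to 1233 CPM and 793 to 2951 CPM with 0 passing. Of the remaining lists, the microglial and mural ones had 1 gene lower each, and both sums lay lower in CDD without overlap. The microglial sum was 49.5 to 54.2 CPM in CDD and 55.2 to 63.1 CPM in ND. The mural sum was 162 to 173 CPM in CDD and 174 to 190 CPM in ND. The meningeal list had 1 gene higher and 2 lower, the lens and eye one 1 higher, and the muscle and choroid plexus ones 0. The part of these cell types in the differences among the glycolytic genes was not tested.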

How the data were processed

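Poly-A RNA of 8 whole brains was sequenced. Per the submitters' processing notes, reads were handled with HISAT2 2.0.5, featureCounts 1.5.0-p3 and DESeq2 1.20.0. The genome build and strand setting are not given in the sources used here, so gene positions are printed as listed. The authors deposited raw counts per gene, FPKM values per listed gene length, and a normalized signal (the count divided by a size factor per library) with its mean per diet. The log2 fold changes and p-values of the authors' own comparison, also in the deposited table, and 3 shorter tables chosen by it were not used.

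Counts of all 33971 genes were tested with edgeR 4.0.16 in R 4.3.3 (filterByExpr, TMM, robust quasi-likelihood, diet as the only term) with Benjamini-Hochberg adjustment over 19367 genes at 0.05. The script was tested on simulated data, where 15 of 70 genes changed by a log2 fold of 0.25 were called in the true direction. At a log2 fold of 0.5 it called 44 of 65, so small changes can be missed. Ratios were differences of log2 CPM (prior count 2), and SciPy 1.17.1 compared the diets over every division of the brains (exact permutation, two-sided). Per-length levels and shares used FPKM without a test. Alternatives were DESeq2 1.42.0, limma-voom (limma 3.58.1), RLE and upper-quartile scaling, no count filter, at least 10 counts in every brain, pseudogene counts added to the gene, a replicate block, a prior count of 0.5, an FPKM pseudocount of 0.1, stricter thresholds and each brain left out. *Xist* as a covariate, and brains without *Xist* reads only, were chosen after seeing the data. Every member is named; values in every brain are given for members that passed, for isozymes of their step and, chosen after its values were seen, for *Gapdh*. Of the related lists described, the genes that passed are named, with *Bsg* and *Hif1a* as examples, and a further related list is not reported here. Members and lists were chosen with earlier results of these data known. The p-values rest on 4 brains a diet.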

Additional observations from a re-analysis of the deposited data

Results flagged for a closer look

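The level of each of the 34 genes in each diet (68 groups of 4 brains) was examined for a single brain far from the other 3, and 2 groups held such a brain, where chance gives about 3.4. *Aldoc* was at 91.2 CPM in CDD 2, above the 78.3 to 79.9 CPM of the other CDD brains. Without CDD 2 *Aldoc* was still called higher in CDD. *Pdk4* was at 1.73 CPM in ND 1, below the 1.97 to 2.00 CPM of the other ND brains, and it was not called with or without that brain.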

How the results depend on the processing

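The 9 members called kept their direction in every alternative tried, and their number was 8 to 11 under the other tools, scalings, filters and models. It was 4 at an adjusted p under 0.01 (2 higher, 2 lower) and 0 for a change of at least 1.5-fold (0 higher, 0 lower). Over all genes the count was 477 and 174 under those thresholds. With 1 brain left out the count over all genes ranged from 471 (without ND 3) to 2495 (without CDD 3), that over the members from 4 to 10, with 1 to 6 higher and 2 to 6 lower. Among brains without *Xist* reads 8 were called, 3 of them higher. Same-numbered brains of the 2 diets did not deviate together in every pair (correlations of 0.105, −0.133, 0.117 and 0.232). Across all pairs of brains the correlations were positive where *Xist* was alike and negative where it was not. For ND 4 they were 0.214 and 0.232 with CDD 2 and CDD 4, and −0.25 and −0.226 with CDD 1 and CDD 3. They therefore cannot tell whether the numbers are pairs. The labels name no pairing, and the numbers were not taken as pairs. With a replicate block 9 members were called, 7 of them shared, *Tpi1* and *Eno2* lost and *Hk1* and *Eno1* gained. Directions turned only for members near 0 and never called: *Gpi1* (0.0010 with DESeq2, 0.0078 without *Xist* brains, −0.015 to 0.012 with a brain left out), *Aldoa* (−0.0055 with *Xist* as a covariate, −0.029 without *Xist* brains, −0.025 to 0.048 with a brain left out), *Mpc2* (−0.037 to 0.00053), *Pdha1* (−0.072 to 0.0020), *Pdk1* (−0.0020 with the covariate, −0.015 to 0.035) and *Pdhb* (0.0013 without *Xist* brains). The cause was not tested. The number of ratios at the smallest exact p was 7 with a prior count of 0.5 and with FPKM in place of CPM, as in the report. Within a brain, the FPKM ratio of 2 genes is their count ratio times a constant set by the listed lengths. The FPKM setting could therefore change little beyond the pseudocount of 0.1, and is no separate check.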
